A study of Mus musculus with 6 samples.

Results

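The genes described here encode 3 groups of synaptic vesicle proteins. They are the synapsins Syn1, Syn2 and Syn3, the integral vesicle membrane proteins Syp, Sv2a, Sv2b and Sv2c, and the small GTPases Rab3a and Rab3c with their effector Rph3a. They were chosen by name, and all 10 were found among the 35148 genes of the deposited table and passed the filter on low counts. Sequencing was done on RNA from the hypothalamic paraventricular nucleus (PVH), a cluster of neuroendocrine and pre-autonomic neurons that takes part in the control of feeding, in mice of genotype Ruvbl2fl/fl. Such animals carry loxP sites around part of both copies of Ruvbl2, which encodes an ATPase of chromatin remodelling and chaperone complexes. The comparison is between 3 libraries labelled AAV2-Cre-GFP, from PVH injected with an adeno-associated virus that carries Cre recombinase and GFP, and 3 libraries labelled AAV2-GFP, from PVH injected with the virus carrying GFP alone. Both groups share the floxed genotype and were taken 8 weeks after injection, and the series description names the role of RUVBL2 in synaptic plasticity as the question. The promoter that drives Cre, the age and sex of the animals and the number of animals behind each library are not stated in the sources used here. The p-values therefore reflect only how these samples vary, which may be technical.

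Synaptic vesicles store neurotransmitter in the axon terminal and release it when they fuse with the plasma membrane. Synapsins are phosphoproteins that coat vesicles and tether them to each other and to actin in a reserve pool, and phosphorylation loosens that hold. Synaptophysin (Syp) is an abundant membrane protein of the vesicle and binds synaptobrevin, whereas the SV2 proteins are transporter-like glycoproteins that bind synaptotagmin. SV2A is the binding site of the antiepileptic drug levetiracetam. RAB3 proteins cycle between a GTP-bound form on the vesicle and a GDP-bound form in the cytosol, and rabphilin (Rph3a) binds the GTP-bound form. In the gene annotation of the deposited table, all 10 genes carry the term synaptic vesicle, and 8 carry the terms synaptic vesicle membrane and synapse, the exceptions being Rab3a and Rab3c.

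Depth was similar in all libraries, with total counts between 41890769 and 54702785. Ruvbl2, the gene targeted by Cre, had overlapping levels in the groups and was at 9.53, 9.10 and 9.51 FPKM (fragments scaled by gene length and library size) in the 3 libraries labelled AAV2-Cre-GFP, against 9.90, 7.36 and 8.72 FPKM in the 3 labelled AAV2-GFP. Its log2 difference, Cre minus GFP as all differences here, came to 0.077 ± 0.11 (SE; 95% interval -0.18 to 0.33; edgeR adjusted p = 0.773). Counts of a whole gene cannot tell deleted from retained exons, so these values show neither that Ruvbl2 was deleted nor that it was not. The groups are therefore called Cre-labelled and GFP-labelled here, and every direction compares libraries so labelled. The PVH markers Sim1, Oxt, Avp, Crh, Trh, Otp and Pou3f2 were detected in every library, but their summed level ran from 185 to 644 FPKM in the Cre-labelled and from 305 to 888 FPKM in the GFP-labelled libraries. Transcripts of kidney, skeletal muscle or testis stood out in 3 libraries, and those of the pituitary varied among all 6. The summed level of 8 kidney genes was 297 and 321 FPKM in Cre-labelled libraries 2 and 3 and at most 31.6 FPKM elsewhere, and that of 8 skeletal muscle genes was 90.6 FPKM in Cre-labelled library 3 and at most 7.18 FPKM elsewhere. The summed level of 8 testis genes was 524 FPKM in GFP-labelled library 1 and at most 2.31 FPKM elsewhere, with 7 of the 8 at 0 in at least 1 library. The summed level of 5 pituitary genes, among them Pomc, which hypothalamic neurons also express, was 24.2, 2.61 and 14.6 FPKM in Cre-labelled libraries 1 to 3, against 1.73, 27.4 and 5.07 FPKM in GFP-labelled libraries 1 to 3. The ribosomal RNA model CT010467 was at 17633, 13492 and 7301 CPM (counts scaled to a common library total) in the Cre-labelled libraries 1 to 3, against 2219, 2201 and 2072 CPM in the GFP-labelled ones.

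The levels of the vesicle genes spanned a wide range, from Syp at 152 ± 7.92 FPKM to Syn3 at 1.39 ± 0.0723 FPKM in the Cre-labelled libraries, and from 186 ± 3.80 to 1.41 ± 0.293 FPKM for the same genes in the GFP-labelled ones (SD, n = 3). In the Cre-labelled libraries the order of FPKM levels was Syp, Rab3a, Sv2a, Syn1, Rph3a, Syn2, Rab3c, Sv2b, Sv2c and Syn3, and the neighbours Syp and Rab3a, and Syn2 and Rab3c, had overlapping ranges. The GFP-labelled libraries gave the same order of means, with overlapping ranges for Sv2a and Syn1 and for Syn2 and Rab3c. Thus 1 synapsin, Syn1, shared its range with Sv2a in the GFP-labelled group, but lay below Sv2a without overlap in the Cre-labelled group. Among these genes Syn1, Sv2a and Rab3a led the synapsin, SV2 and RAB3 families, as the plot of levels by library shows. The lowest levels were those of Sv2b, Sv2c and Syn3.

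**Figure D1:**
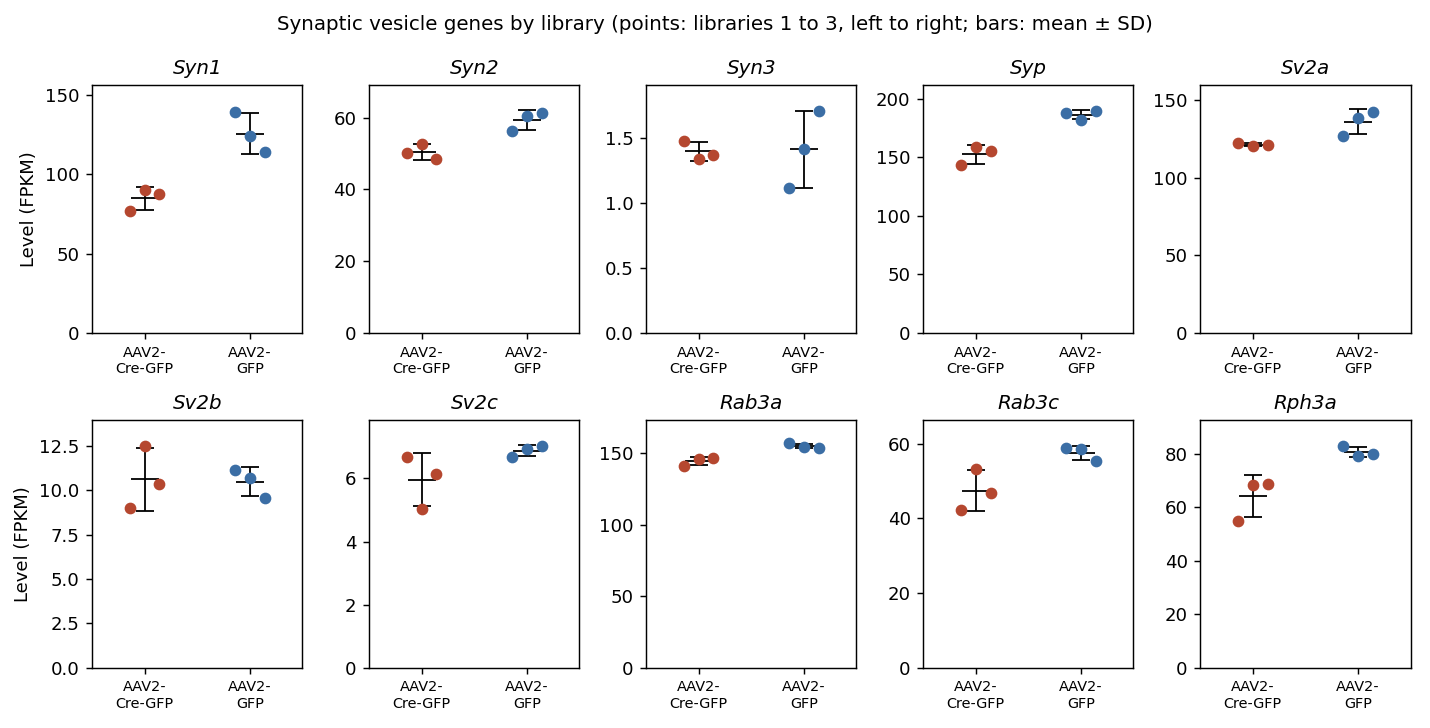
Level of each vesicle gene in FPKM (linear axis from 0, own scale per gene) in the 3 Cre-labelled libraries (left of each panel) and the 3 GFP-labelled libraries (right); points are libraries 1 to 3 from left to right, bars the mean ± SD. For Syn1, Syn2, Syp, Sv2a, Rab3a, Rab3c and Rph3a every Cre-labelled point lies below every GFP-labelled point, while Syn3, Sv2b and Sv2c overlap.

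Between the groups, all 10 genes had a negative log2 difference (9 with scaling by library totals alone, which put Sv2b at 0.028), with a median of -0.26 over the set and of -0.0058 over the 20865 genes tested, of which 10639 had a negative difference. By edgeR's quasi-likelihood test none of the 10 was called at an adjusted p of 0.05, the threshold used here, and 0.00959% of all tested genes were called lower. At an unadjusted p under 0.05, 8 of the 10 were lower, where 9.11% of all tested genes were. For 7 of the 10 the FPKM of the 3 Cre-labelled libraries were all below those of the 3 GFP-labelled libraries, where 8.8% of tested genes showed such a separation. DESeq2, which calls more genes from the same counts, called 6 of the 10 lower (Syn1, Syn2, Syp, Sv2a, Rab3c and Rph3a) at an adjusted p of 0.05, where it called 5.4% of the genes to which it gave an adjusted p. Highly expressed genes as a class leaned the same way: of the 818 tested genes averaging 40 FPKM or more, the range in which 7 of the vesicle genes lie, 527 had a negative difference, 30.2% were lower at an unadjusted p under 0.05 and 26.8% were separated downward, with a median log2 difference of -0.069. The 3 genes that overlapped between groups were the 3 with the lowest levels. Without the 3 libraries with kidney, muscle or testis transcripts, Cre-labelled library 1, in which the vesicle genes were lowest on average, stands alone against GFP-labelled libraries 2 and 3. There edgeR called 6 of the 10 lower, where it called 3.57% of tested genes lower, and 9 were separated downward in FPKM, where 31.7% of tested genes were. Cre-labelled library 1 and GFP-labelled library 2 are those with the highest pituitary sums. The interval plot gives the fitted difference of each gene.

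**Figure D2:**
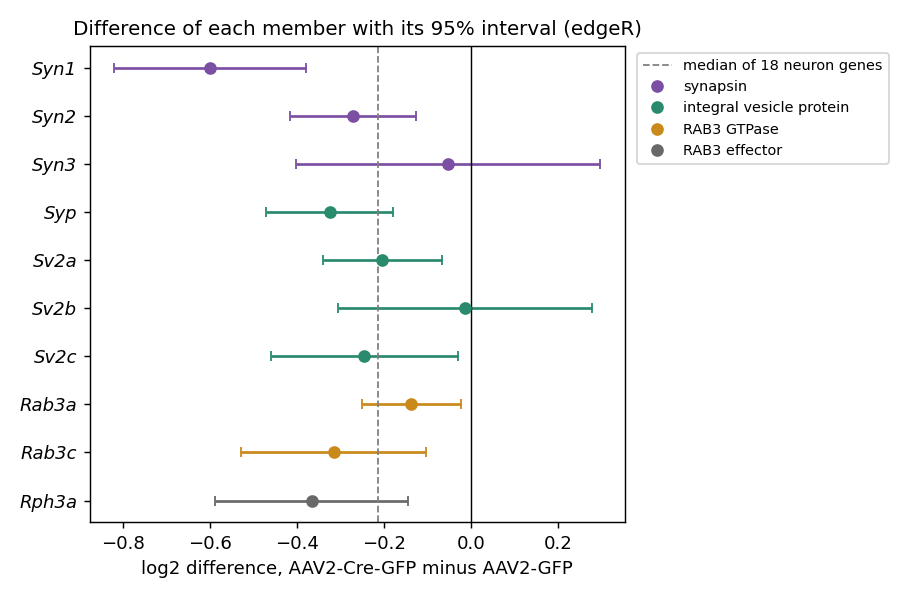
Fitted log2 difference of each vesicle gene, Cre-labelled minus GFP-labelled (edgeR, 3 libraries each), with its 95% interval; colours give the protein group and the dashed line the median of 18 neuron genes, -0.22. The Syn1 interval, -0.82 to -0.38, lies wholly below that line, but single neuron genes ran from -0.48 to -0.063, so it overlaps their range. Syn1 was not tested against the neuron genes. The Syn3 and Sv2b intervals include 0.

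Among the synapsins, Syn1 had the most negative difference of the 10 genes and Syn3 showed none that could be resolved. Syn1 (ENSMUSG00000037217), which encodes synapsin I, lies on the minus strand at chrX:20860511-20921004 (GRCm38). It is shown first with its promoter and that of its paralogue Syn2 (ENSMUSG00000009394; plus strand, chr6:115134902-115276559), since their levels differed unequally between the groups. Both sequences are RefSeq promoter windows of build GRCm38.p6, from 250 bases before to 50 bases after a transcription start, at chrX:20920869-20921168 on the minus strand for Syn1 and chr6:115134652-115134951 on the plus strand for Syn2. Capitals mark, in Syn1, a match to RE1, the element bound by the repressor REST, with at most 1 mismatch, and then the cAMP response element TGACGTCA, and in Syn2 the GC box GGGCGG on either strand.
Syn1: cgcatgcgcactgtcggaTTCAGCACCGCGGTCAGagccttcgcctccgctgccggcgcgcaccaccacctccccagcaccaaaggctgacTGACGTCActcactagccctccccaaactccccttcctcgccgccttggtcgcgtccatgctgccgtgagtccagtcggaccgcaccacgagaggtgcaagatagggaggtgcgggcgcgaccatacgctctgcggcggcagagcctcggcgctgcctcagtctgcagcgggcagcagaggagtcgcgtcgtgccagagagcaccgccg
Syn2: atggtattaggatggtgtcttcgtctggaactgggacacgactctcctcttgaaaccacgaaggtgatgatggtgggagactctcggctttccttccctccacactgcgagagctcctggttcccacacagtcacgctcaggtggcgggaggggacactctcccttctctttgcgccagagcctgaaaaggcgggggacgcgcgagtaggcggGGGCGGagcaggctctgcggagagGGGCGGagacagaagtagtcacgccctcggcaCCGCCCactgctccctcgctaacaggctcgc
The window of Syn1 held 33 CpG and that of Syn2 21, against a median of 7 over 32851 RefSeq promoters. The Syn1 matches lay at -232 to -216 for RE1 and at -159 to -152 for the cAMP response element, counted from the start site with negative positions before it. In all promoters, both strands searched, 1.00% held an RE1 with at most 1 mismatch, 1.79% a TGACGTCA and 35.7% a GGGCGG. The strict RE1 pattern, found in 0.0639% of promoters, had no match in the Syn1 window, and the looser pattern was added after that was seen. These are matches of letters and were not tied to the levels by any test.

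Syn1 was at 76.6, 90.1 and 87.7 FPKM in Cre-labelled libraries 1 to 3, against 139, 124 and 114 FPKM in GFP-labelled libraries 1 to 3. All 3 Cre-labelled libraries lay below the lowest GFP-labelled one, with between 12248 and 23178 counts behind each value. The fitted ratio was 0.659, a log2 difference of -0.60 ± 0.095 (SE; 95% interval -0.82 to -0.38), which missed the threshold in edgeR (adjusted p = 0.0705) and passed in DESeq2 (adjusted p = 2.67e-08). By its edgeR p-value it stood at rank 69 of the 20865 genes tested. Without Cre-labelled library 1 the log2 difference was -0.51.

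Syn2, which encodes synapsin II, was at 50.2, 52.8 and 48.4 FPKM in the Cre-labelled libraries, against 56.2, 60.5 and 61.4 FPKM in the GFP-labelled ones. The groups did not overlap, but the distance between them was smaller than for Syn1, with a log2 difference of -0.27 ± 0.063 (SE; edgeR adjusted p = 0.109). Syn3 (ENSMUSG00000059602; minus strand, chr10:86055125-86498896), the synapsin whose expression is strongest during brain development, was at 1.48, 1.34 and 1.37 FPKM in the Cre-labelled libraries, against 1.11, 1.41 and 1.70 FPKM in the GFP-labelled ones. All Cre-labelled values lay inside the GFP-labelled range, and the log2 difference of -0.054 had a 95% interval of -0.40 to 0.30 (edgeR adjusted p = 0.894). It was 0.11 without GFP-labelled library 3 and -0.20 without GFP-labelled library 1, so its sign rests on single libraries.

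The synapsin genes enclose genes of the TIMP family, which encode inhibitors of metalloproteinases, on the opposite strand. Timp3 shares 14.1% of the exon bases of Syn3, and its level of 30.4 ± 4.58 FPKM in the Cre-labelled and 27.1 ± 2.52 FPKM in the GFP-labelled libraries (SD, n = 3) was far above that of Syn3. Whether strand was used in counting is not given in the sources used here, so reads of Timp3 and Syn3 may not have been told apart. Timp4 shares 1.28% of the exon bases of Syn2, at 6.58 ± 1.07 FPKM in the Cre-labelled and 5.93 ± 0.838 FPKM in the GFP-labelled libraries (SD, n = 3). Timp1 lies inside Syn1 but shares no exon base with it and had only 10 to 37 counts per library. The log2 differences of Timp1, Timp3 and Timp4 were 0.22, 0.13 and 0.11, opposite in sign to those of their host genes, and none passed (edgeR adjusted p = 0.897, 0.631 and 0.734).

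The composition of the synapsin family is a ratio within each library that no scaling of libraries can alter. Like the other family shares, it is computed from the same FPKM as the single genes. A lower Syn1 share therefore follows from the more negative difference of Syn1 and is not separate support for it. Syn1 made up 59.7%, 62.5% and 63.8% of the summed synapsin FPKM in the Cre-labelled libraries, against 70.8%, 66.7% and 64.3% in the GFP-labelled ones. The share of Syn2 was 37.0% ± 2.01 in the Cre-labelled and 32.0% ± 3.07 in the GFP-labelled libraries, and that of Syn3 1.02% ± 0.114 in the Cre-labelled and 0.763% ± 0.197 in the GFP-labelled libraries (SD, n = 3). The difference in the Syn1 share was -5.26 percentage points, and although the groups did not overlap, the gap between the highest Cre-labelled and the lowest GFP-labelled library was small beside the spread within each group. A two-sided exact permutation test gave p = 0.1, the smallest that 3 libraries against 3 can give, and 0.15 after adjustment over the 3 family shares tested. The plot of family composition sets the 3 families side by side.

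**Figure D3:**
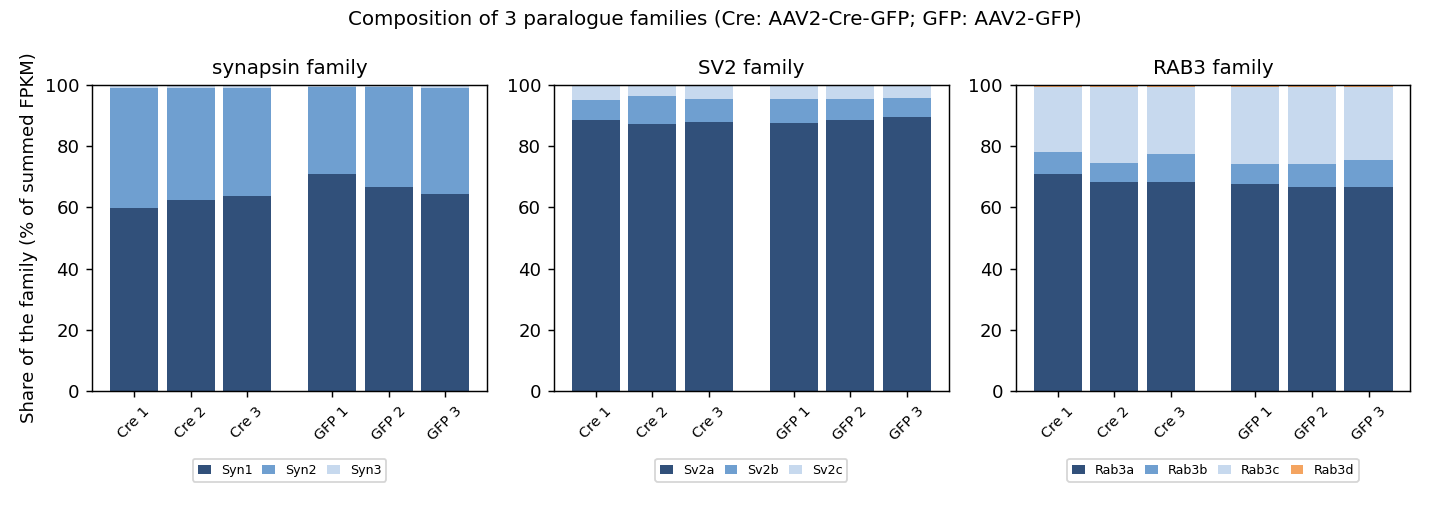
Share of each paralogue in the summed FPKM of its family (percent, stacked to 100) in the 3 Cre-labelled libraries (left) and the 3 GFP-labelled libraries (right). Syn1 takes 59.7% to 63.8% of synapsin FPKM in the Cre-labelled and 64.3% to 70.8% in the GFP-labelled libraries, while Sv2a stays between 87.2% and 89.6% of SV2 FPKM in all 6.

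Of the integral membrane proteins, Syp and Sv2a were separated between the groups, Sv2c nearly so, and Sv2b not at all. The promoters of Syp (ENSMUSG00000031144; plus strand, chrX:7638471-7653256) and Sv2b (ENSMUSG00000053025; minus strand, chr7:75114894-75309262) are shown as those of the most abundant vesicle gene and of the one with the smallest difference. They are RefSeq windows of build GRCm38.p6 at chrX:7638330-7638629 on the plus strand and chr7:75309213-75309512 on the minus strand. Capitals mark the GC box GGGCGG and, in Sv2b, also the TATA box letters TATAAA read on the other strand.
Syp: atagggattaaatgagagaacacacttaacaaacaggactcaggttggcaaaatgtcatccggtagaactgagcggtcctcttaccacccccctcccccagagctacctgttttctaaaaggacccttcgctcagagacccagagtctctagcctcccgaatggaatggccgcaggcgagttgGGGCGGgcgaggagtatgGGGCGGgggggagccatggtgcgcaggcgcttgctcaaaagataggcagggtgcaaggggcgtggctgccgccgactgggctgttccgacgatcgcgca
Sv2b: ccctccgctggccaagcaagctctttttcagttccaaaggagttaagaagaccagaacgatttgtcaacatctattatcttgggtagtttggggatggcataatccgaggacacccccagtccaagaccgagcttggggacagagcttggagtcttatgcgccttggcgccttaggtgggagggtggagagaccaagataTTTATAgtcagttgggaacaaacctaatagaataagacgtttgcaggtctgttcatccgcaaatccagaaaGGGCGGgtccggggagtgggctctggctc
The Syp window had 2 GC boxes and 18 CpG, and that of Sv2b 1 GC box, 10 CpG and a TATA match at -50 to -45, on the strand opposite to the gene. In all promoters 13.6% held a TATAAA on either strand. RefSeq windows were found for 9 of the 10 genes, all but Syn3. For Syn2, Sv2b, Rab3a and Rph3a there were several, and only the window nearest the deposited gene start was used. The window of Rab3c lay 790 bases from that start. The median of the 9 windows was 18 CpG and a GC content of 60.0%, against 7 CpG and 52.7% in all promoters. The E-box CACGTG, held by 7.15% of promoters, and the EGR site GCGTGGGCG, held by 0.612%, were searched on both strands and had no match in the 9 windows.

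Syp, the vesicle marker synaptophysin, was at 143, 158 and 155 FPKM in the Cre-labelled libraries, against 188, 182 and 189 FPKM in the GFP-labelled ones. The groups were far apart relative to their SDs, 7.92 FPKM in the Cre-labelled and 3.80 FPKM in the GFP-labelled group (n = 3 each), and the log2 difference was -0.33 ± 0.063 (SE; 95% interval -0.47 to -0.18; edgeR adjusted p = 0.0817). An antisense gene, Gm14703, shares 16.8% of the exon bases of Syp but had no more than 118 counts, where Syp had at least 36224. Sv2a (ENSMUSG00000038486; plus strand, chr3:96181151-96195521), which encodes the SV2 isoform found at nearly all synapses, was at 122, 120.2 and 121 FPKM in the Cre-labelled libraries, against 127, 139 and 142 FPKM in the GFP-labelled ones. The Cre-labelled libraries were nearly level, with an SD of 0.957 FPKM (n = 3), and lay just below GFP-labelled library 1, with a log2 difference of -0.20 ± 0.059 (SE; edgeR adjusted p = 0.156).

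Sv2b was at 8.99, 12.5 and 10.4 FPKM in the Cre-labelled libraries, against 11.2, 10.7 and 9.58 FPKM in the GFP-labelled ones. The Cre-labelled libraries held both the highest and the lowest value, and the mean was 10.6 ± 1.79 FPKM in the Cre-labelled and 10.5 ± 0.816 FPKM in the GFP-labelled group (SD, n = 3). The log2 difference was -0.014, with a 95% interval of -0.31 to 0.28 (edgeR adjusted p = 0.968), and 0.11 without Cre-labelled library 1. Sv2c (ENSMUSG00000051111; minus strand, chr13:95954594-96132577), the isoform known for its enrichment in the basal ganglia, was at 6.69, 5.04 and 6.15 FPKM in the Cre-labelled libraries, against 6.69, 6.93 and 7.01 FPKM in the GFP-labelled ones. Cre-labelled library 1 and GFP-labelled library 1 were level and the other 2 Cre-labelled libraries were below, and the log2 difference of -0.25 ± 0.093 (SE; edgeR adjusted p = 0.242) was -0.13 without Cre-labelled library 2. The Sv2a share of SV2 FPKM averaged 88.0% ± 0.691 in the Cre-labelled and 88.7% ± 0.940 in the GFP-labelled libraries (SD, n = 3), a difference of -0.696 points that the exact permutation test did not separate from the spread (two-sided p = 0.4).

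Of the RAB3 group, Rab3a, the main RAB3 of the brain, had the smallest difference and rabphilin the largest. Rab3a (ENSMUSG00000031840; plus strand, chr8:70754679-70758677) was at 141, 146 and 147 FPKM in the Cre-labelled libraries, against 157, 154 and 154 FPKM in the GFP-labelled ones. Both groups were tight and did not overlap, and the log2 difference was -0.14 ± 0.050 (SE; edgeR adjusted p = 0.221). Rab3c (ENSMUSG00000021700; minus strand, chr13:110054187-110280996), a close paralogue, was at 42.2, 53.2 and 46.7 FPKM in the Cre-labelled libraries, against 58.9, 58.4 and 55.4 FPKM in the GFP-labelled ones. Its Cre-labelled libraries were spread more widely, with an SD of 5.51 FPKM, against 1.90 FPKM in the GFP-labelled ones (n = 3 each), and the log2 difference was -0.32 ± 0.092 (SE; edgeR adjusted p = 0.158). Rph3a (ENSMUSG00000029608; minus strand, chr5:120940499-121010092) was at 55.0, 68.4 and 68.8 FPKM in the Cre-labelled libraries, against 82.9, 79.3 and 79.7 FPKM in the GFP-labelled ones. Cre-labelled library 1 was the lowest by a wide margin, and the log2 difference of -0.37 ± 0.096 (SE; edgeR adjusted p = 0.134) was -0.25 without it.

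The remaining RAB3 paralogues completed the family. Rab3b, a RAB3 of neuroendocrine and some neuronal cells, was at 14.6, 13.8 and 19.5 FPKM in the Cre-labelled libraries, against 15.3, 17.4 and 20.0 FPKM in the GFP-labelled ones, with overlapping ranges (log2 difference -0.18; edgeR adjusted p = 0.579). Rab3d, known from secretory cells outside the brain, averaged 1.32 ± 0.114 FPKM in the Cre-labelled and 1.38 ± 0.114 FPKM in the GFP-labelled libraries (SD, n = 3; edgeR adjusted p = 0.808). Rab3a took 70.9%, 68.2% and 68.4% of the summed RAB3 FPKM in the Cre-labelled libraries, against 67.5%, 66.6% and 66.7% in the GFP-labelled ones. Every Cre-labelled library was above every GFP-labelled one, by 2.20 points on average, and the two-sided exact permutation test again gave its smallest possible p = 0.1 (0.15 adjusted over the 3 shares). Without Cre-labelled library 1 the difference was 1.34 points. Over all libraries, the Rab3c share averaged 22.6% ± 1.96 in the Cre-labelled and 24.9% ± 0.715 in the GFP-labelled group (SD, n = 3), with overlapping ranges.

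Averaged over genes, the vesicle set and genes of the whole neuron had similar profiles over the libraries. Single vesicle genes departed from the set mean, Syn3 and Syn1 the most. In the GFP-labelled group the vesicle mean was highest in library 3 and the neuron mean in library 2. As the mean over genes of the log2 CPM centred on the 6 libraries, the vesicle genes stood at -0.21, -0.061 and -0.11 in Cre-labelled libraries 1 to 3, against 0.11, 0.13 and 0.15 in GFP-labelled libraries 1 to 3. For 18 neuron genes such as Rbfox3, which encodes the neuronal nuclear protein NeuN, these means were -0.19, -0.048 and -0.11 in the Cre-labelled libraries, against 0.098, 0.13 and 0.12 in the GFP-labelled ones. All 18 neuron genes had a negative log2 difference, with a median of -0.22, though none passed in edgeR. At an unadjusted p under 0.05, 13 of them were lower (8 without Cre-labelled library 3 or GFP-labelled library 2). Of all tested genes 9.11% were lower at that p, and of those averaging 40 FPKM or more 30.2%. The difference between the mean log2(FPKM + 0.5) of the vesicle genes and that of the neuron genes was -0.481, -0.471 and -0.462 in the Cre-labelled libraries, against -0.442, -0.463 and -0.439 in the GFP-labelled ones. These values overlapped, and their group means differed by -0.023 (two-sided exact permutation test p = 0.2, where the smallest possible is 0.1). In bulk tissue, fewer cells of a type and less RNA per cell cannot be told apart.

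Other tissue markers differed between the same libraries. The summed level of the 18 neuron genes ran from 1333 to 1473 FPKM in the Cre-labelled and from 1597 to 1622 FPKM in the GFP-labelled libraries, so the groups did not overlap. Red blood cell genes ran from 301 to 403 FPKM in the Cre-labelled and from 226 to 261 FPKM in the GFP-labelled libraries, with all 5 genes having a positive log2 difference. The astrocyte sum ran from 661 to 727 FPKM in the Cre-labelled and from 626 to 646 FPKM in the GFP-labelled libraries (8 of 10 genes with a positive difference), and the ependymal sum from 87.8 to 122 FPKM in the Cre-labelled and from 70.2 to 90.8 FPKM in the GFP-labelled libraries (5 of 6 positive). Markers of oligodendrocytes (6 of 10 positive), microglia (5 of 10) and endothelium (6 of 8) had overlapping sums, and those of oligodendrocyte precursors (2 of 6 positive) did not overlap at 66.8 to 70.8 FPKM in the Cre-labelled and 63.3 to 65.3 FPKM in the GFP-labelled libraries. Apart from the other-organ and pituitary lists, no marker was at 0 in any library. The 7 PVH markers all had a negative log2 difference, with a median of -0.70, though none passed in edgeR. Of the 7, 4 were lower at an unadjusted p under 0.05, where 9.11% of all tested genes were. DESeq2 called 2 of them lower, where it called 5.4% of the genes to which it gave an adjusted p. As mean centred log2 CPM they stood at -0.61, -0.54 and 0.11 in Cre-labelled libraries 1 to 3, against -0.31, 0.62 and 0.74 in GFP-labelled libraries 1 to 3, so the groups overlapped. Genes of the thalamus, which borders the PVH, had a negative difference in 10 of 10 cases, 6 of 10 without Cre-labelled library 1 or without GFP-labelled library 1. Their summed level of 153 to 237 FPKM in the Cre-labelled and 213 to 265 FPKM in the GFP-labelled libraries overlapped. In the plot of list profiles the thalamus genes, like the vesicle genes, were lowest in library 1 and highest in library 2 of the Cre-labelled group, while in the GFP-labelled group they were lowest in library 3, where the vesicle genes were highest. The part of these markers, and of CT010467, in the differences of the vesicle genes was not tested.

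**Figure D4:**
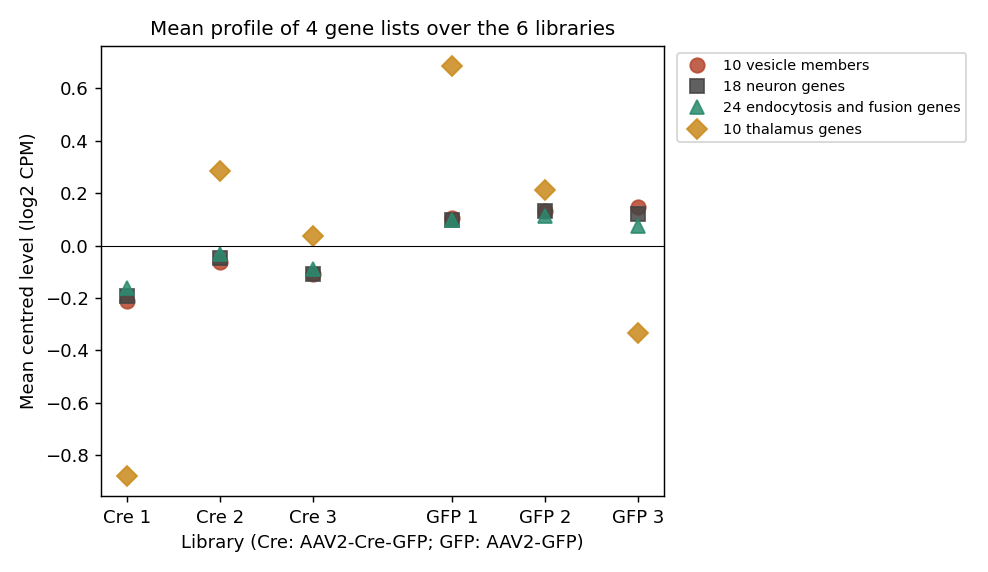
Mean centred log2 CPM of 4 gene lists in each library, Cre-labelled 1 to 3 at left and GFP-labelled 1 to 3 at right. The vesicle, neuron, and endocytosis and fusion lists lie close together, between -0.21 and -0.034 in the Cre-labelled and between 0.074 and 0.15 in the GFP-labelled libraries, whereas the thalamus list spans -0.88 to 0.28 in the Cre-labelled and -0.34 to 0.68 in the GFP-labelled libraries.

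Further genes of the vesicle and its cycle were taken as 3 lists, of which none had a gene past the edgeR threshold. Over all tested genes, 9.11% were lower at an unadjusted p under 0.05 and 8.8% were separated downward. Among tested genes averaging 40 FPKM or more, these shares were 30.2% and 26.8%. DESeq2 called 5.4% of the genes to which it gave an adjusted p lower. The first 3 genes named from each list are those with its smallest edgeR p. With scaling by library totals alone, the numbers of negative differences given here would be 20 of 24, 12 of 16 and 22 of 24. In a list of 24 other vesicle membrane proteins, 21 had a negative and 3 a positive log2 difference, with a median of -0.14; 7 were lower and 1 higher at an unadjusted p under 0.05, and DESeq2 called 6 lower. Atp6v0a1, a membrane subunit of the proton pump that energises transmitter loading, averaged 66.7 ± 4.63 FPKM in the Cre-labelled and 85.7 ± 2.80 FPKM in the GFP-labelled libraries (SD, n = 3; log2 difference -0.40; edgeR adjusted p = 0.0757). Syngr1, the vesicle protein synaptogyrin 1, averaged 87.3 ± 2.04 FPKM in the Cre-labelled and 104 ± 2.91 FPKM in the GFP-labelled libraries (log2 difference -0.29; edgeR adjusted p = 0.0779). Scamp1, a carrier protein of secretory membranes, averaged 37.0 ± 1.63 FPKM in the Cre-labelled and 40.5 ± 0.990 FPKM in the GFP-labelled libraries (log2 difference -0.17; edgeR adjusted p = 0.171). The groups did not overlap for any of these 3 genes, which were picked by their p. In the whole list 6 of 24 were separated downward.

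The list of 16 genes of the RAB3 cycle also holds general Rab escort proteins and the Doc2 proteins. Of the 16, 14 had a negative and 2 a positive difference, with a median of -0.16. At an unadjusted p under 0.05, 5 were lower (3 without Cre-labelled library 1 or 3 or GFP-labelled library 2). Chml, a Rab escort protein that presents Rab proteins for prenylation, averaged 1.29 ± 0.152 FPKM in the Cre-labelled and 2.39 ± 0.251 FPKM in the GFP-labelled libraries (SD, n = 3; log2 difference -0.92; edgeR adjusted p = 0.0705), and it shares 461 exon bases with Opn3 on the same strand. Doc2a, a calcium sensor of release with C2 domains like those of rabphilin, averaged 7.82 ± 0.0480 FPKM in the Cre-labelled and 10.1 ± 1.53 FPKM in the GFP-labelled libraries (log2 difference -0.41; edgeR adjusted p = 0.141), with 39.4% of its exon bases also in Ino80e on the opposite strand. Gdi2, which extracts GDP-bound Rab proteins from membranes, averaged 17.8 ± 0.528 FPKM in the Cre-labelled and 19.5 ± 0.747 FPKM in the GFP-labelled libraries (log2 difference -0.17; edgeR adjusted p = 0.168), with 11.2% of its exon bases in Fam208b on the opposite strand. The GTPase-activating subunits Rab3gap1 and Rab3gap2 had log2 differences of -0.031 and -0.080.

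In the list of 24 genes of vesicle endocytosis and fusion, 23 had a negative difference, with a median of -0.19. Of these, 15 were lower at an unadjusted p under 0.05, none higher, 11 were called lower by DESeq2, and 13 were separated downward between the groups. Without GFP-labelled library 2, 9 were lower at an unadjusted p under 0.05. Synj1, the phosphoinositide phosphatase synaptojanin 1 that uncoats endocytosed vesicles, averaged 41.9 ± 1.06 FPKM in the Cre-labelled and 50.8 ± 0.983 FPKM in the GFP-labelled libraries (SD, n = 3; log2 difference -0.31; edgeR adjusted p = 0.0705). Pacsin1, which bends membrane and binds dynamin, averaged 40.1 ± 1.63 FPKM in the Cre-labelled and 49.0 ± 1.49 FPKM in the GFP-labelled libraries (log2 difference -0.33; edgeR adjusted p = 0.0724). Cltc, the clathrin heavy chain, averaged 53.7 ± 0.899 FPKM in the Cre-labelled and 66.1 ± 4.47 FPKM in the GFP-labelled libraries (log2 difference -0.34; edgeR adjusted p = 0.0793). The plot of differences by list gives every gene.

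**Figure D5:**
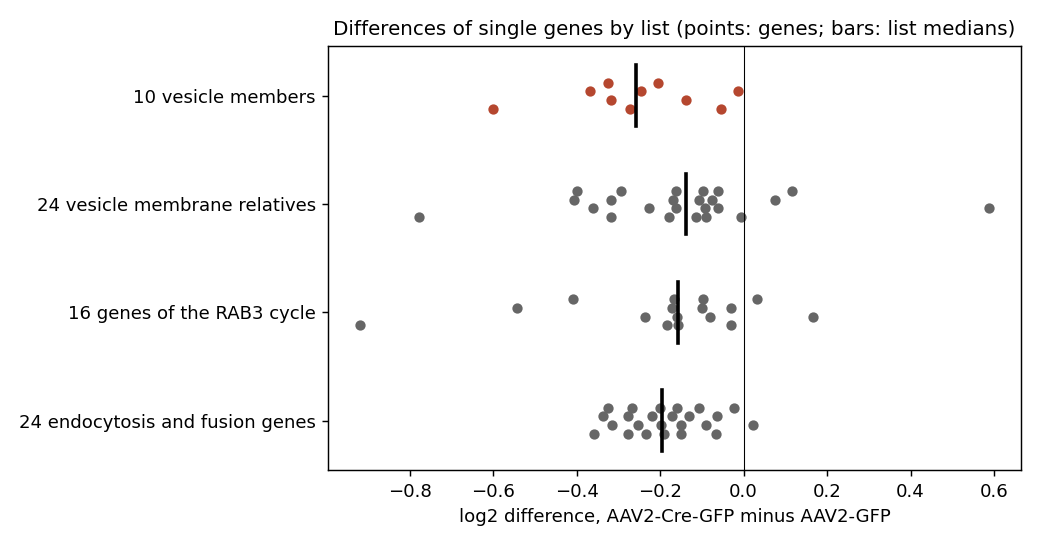
Fitted log2 difference, Cre-labelled minus GFP-labelled, of each gene (points) in the vesicle set and in 3 lists of related genes, with the list median as a bar. The medians are -0.26, -0.14, -0.16 and -0.19 from top to bottom, and most points lie left of 0 in each list.

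Among the vesicle genes, Syp lay nearest to the mean profile of the set over the 6 libraries, with a root mean square difference of 0.0440 in log2 CPM, and Syn2, Sv2a and Rab3a followed at 0.0495, 0.0611 and 0.0639. Syn1 and Syn3 were farthest, at 0.20 and 0.214. Each vesicle gene is itself part of that mean, which brings it closer. The median over tested genes outside the set, which are not part of it, was 0.247 and is no like measure. Outside the set, the 5 tested genes nearest to its mean profile were Gnb1, which encodes a G protein beta subunit, at 0.0207, Wdr7, the partner of the vesicular proton pump, at 0.0210, Kcna2, a potassium channel subunit of axons, at 0.0234, Ube2v1, a ubiquitin-conjugating enzyme variant, at 0.0238, and Rtn1, a reticulon of neurons and 1 of the 18 neuron genes, at 0.0245. Their log2 differences lay between -0.27 and -0.23, and none passed in edgeR. Gnb1 averaged 88.7 ± 3.40 FPKM in the Cre-labelled and 102 ± 0.997 FPKM in the GFP-labelled libraries (SD, n = 3).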

How the data were processed

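Per the labels' protocols, poly(A) RNA was made into stranded libraries by dUTP marking, with adapters that carry molecular identifiers. The submitters' processing notes name cutadapt, HISAT2, StringTie and build mm9, with no versions. Use of strand and of the identifiers in counting is not given in the sources used here. Of 35024 gene identifiers shared with GENCODE M21, 32009 (91.4%) have identical positions, including 9 of the 10 vesicle genes, so coordinates are given as GRCm38. The authors deposited whole-number counts, not normalized, and FPKM for 6 libraries. For a given gene, the deposited FPKM were close to proportional to the counts divided by the library total. In 7284 genes with at least 1000 counts per library, this held within 2% across libraries for 100% of genes. Division by gene length was not checked.

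Counts were tested with edgeR 4.0.16 (quasi-likelihood, TMM, filterByExpr with a minimum count of 10, two-sided, Benjamini-Hochberg over 20865 genes, threshold 0.05, R 4.3.3). The fit was also run on simulated data, with changes larger than those fitted here for every vesicle gene but Syn1. That run therefore does not show how well changes as small as theirs are found. The common biological coefficient of variation was 27.1%. Standard errors come from the F statistic. Family shares and the level relative to neuron genes were compared by exact permutation tests (SciPy 1.17.1). Profiles used log2 CPM with a prior count of 2. Promoters, motifs and shared exon bases were read from RefSeq (GRCm38.p6) and GENCODE M21.

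The genes and lists were chosen with earlier results of these data known. Named are all 10 genes, Rab3b and Rab3d, Timp1, Timp3, Timp4, Ruvbl2 and CT010467, the 3 genes of each related list with the smallest p, and the 5 genes most like the mean profile. Rab3gap1, Rab3gap2 and the genes under other observations were named after their values were seen. Alternatives were DESeq2 1.42.0, other scalings, no filter, a robust fit, leaving out CT010467 and mitochondrial genes, a replicate block, leaving out each library, and limma 3.58.1 on log2(FPKM + 0.5) of genes averaging at least 1 FPKM, with other pseudocounts and no filter. Leaving out the 3 libraries with kidney, muscle or testis transcripts was chosen after seeing the data.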

Additional observations from a re-analysis of the deposited data

How the results depend on the processing

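The count of 0 vesicle genes called lower held in 16 of 18 alternatives, and the count of 0 called higher in 18 of 18. DESeq2 called 6 lower, and so did edgeR without the 3 libraries with kidney, muscle or testis transcripts, where it called 3.57% of tested genes lower (2 GFP-labelled against Cre-labelled library 1, which is assumed to vary like the others). The number lower at an unadjusted p under 0.05 ran from 6 to 8. The share of all tested genes lower at that p, 9.11%, is from the main fit. It was not computed for the alternatives, so their counts, also those of the other lists above, have no matching share. The median log2 difference of the set ran from -0.30 to -0.21 over the alternatives, and from -0.29 to -0.23 with 1 library left out. With 1 library left out the Syn1 share difference ran from -6.74 to -3.51 points, the Sv2a share difference from -1.18 to -0.239, the Rab3a share difference from 1.34 to 2.70, and the difference relative to neuron genes from -0.031 to -0.018. Without the 3 libraries the Rab3a share difference was 4.19 points.

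The sign was negative in every alternative for 8 of the 10 genes. With 1 library left out Syn3 ran from -0.20 to 0.11, positive without GFP-labelled library 3, and Sv2b from -0.15 to 0.11. Syn3 turned, in limma on FPKM, to 0.00024 with pseudocount 0.5 with or without the filter and 0.0040 with pseudocount 0.1. Sv2b turned to 0.028 with library totals only, 0.0036 with no filter, 0.11 without Cre-labelled library 1, 0.017 without Cre-labelled library 3, 0.030 without GFP-labelled library 1, and 0.0095 in limma on FPKM under every setting of pseudocount and filter. Scaling by library totals moved the median of all genes to 0.039. The cause was not tested for any of these.

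The replicate numbers did not pair the libraries: deviations of same-numbered libraries correlated at -0.0435, 0.0121 and -0.0216. With the replicate number as a block, 0 vesicle genes were called and the median was -0.26. Counts per library were lowest for Syn3, at 695 to 1193, and its coefficient of variation was 5.18% in the Cre-labelled and 20.8% in the GFP-labelled group.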

Other observations

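None of the 5 transmitter transporter genes of the vesicle that were listed passed in edgeR, and the genes given here were chosen with their values known. Slc17a6, the vesicular glutamate transporter of most hypothalamic and thalamic excitatory neurons, averaged 26.5 ± 7.99 FPKM in the Cre-labelled and 34.4 ± 3.13 FPKM in the GFP-labelled libraries (SD, n = 3), with overlapping ranges and a log2 difference of -0.41 (edgeR adjusted p = 0.346). Its relatives Slc17a7 and Slc17a8, both at far lower levels, had log2 differences of -0.78 and -0.36 (edgeR adjusted p = 0.653 and 0.571), also with overlapping ranges. Slc32a1, the vesicular transporter of GABA and glycine, averaged 59.5 ± 5.99 FPKM in the Cre-labelled and 60.4 ± 5.87 FPKM in the GFP-labelled libraries (log2 difference -0.062; edgeR adjusted p = 0.778). Slc18a2, the vesicular monoamine transporter, averaged 5.84 ± 1.13 FPKM in the Cre-labelled and 5.24 ± 0.263 FPKM in the GFP-labelled libraries (log2 difference 0.12; edgeR adjusted p = 0.690).

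Within the vesicular proton pump, the log2 difference was -0.40 for the membrane subunit gene Atp6v0a1, -0.11 for the proteolipid gene Atp6v0c, and -0.061 and -0.0074 for the cytosolic subunit genes Atp6v1a and Atp6v1b2. Syngr2, a synaptogyrin expressed widely outside neurons, averaged 5.42 ± 1.36 FPKM in the Cre-labelled and 3.52 ± 0.202 FPKM in the GFP-labelled libraries (SD, n = 3; log2 difference 0.59; edgeR adjusted p = 0.218). It was at 3.85, 6.14 and 6.28 FPKM in Cre-labelled libraries 1 to 3, against 3.74, 3.34 and 3.49 FPKM in GFP-labelled libraries 1 to 3. Cre-labelled libraries 2 and 3 are those with the high kidney sums, and the part of these in the Syngr2 difference was not tested. The neuronal Syngr1 and Syngr3 had differences of -0.29 and -0.075. Differences between genes of 1 family were not tested.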
